A study of Drosophila melanogaster with 4 samples.

Results

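The locus of h (hairy) carried 6 of the 8958 Hairy peaks in the deposited list. The locus was taken as the 70 kb of chromosome arm 3L from 8630001 to 8700000 on Release 5 of the Drosophila melanogaster genome, and a peak belonged to it when the midpoint between its start and its end fell there. The rule uses position and no peak strength, but the window was chosen with earlier results of these data known. Arm 3L held 1519 peaks in all, so that 1513 lay elsewhere on it. The window was drawn to hold h and the stripe enhancers upstream of it. The peak list names no genes, and Release 5 positions of the gene, its enhancers and the neighbouring genes were not used here. The 6 peaks are therefore given by position. None is assigned to h, to its promoter or enhancers, or to another gene, and some may lie at neighbouring genes. Below, the locus and hairy as a place mean this window.

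The peaks come from chromatin immunoprecipitation and sequencing (ChIP-seq) of whole embryos, with 2 ChIP libraries and 2 input libraries. Hairy was precipitated with KW3-h-D1, a rabbit polyclonal antiserum against a stretch of the Hairy protein. All 4 libraries share 1 strain, Y cn bw sp. The labels give it the body and eye colour alleles y[1], bw[1] and cn[1] and the speck allele sp[1]. They also list oc[R3.2], the R4.2 alleles of lab and CG33964, and allele 1 of Gr22d, Gr22b, GstD5, LysC, MstProx and Rh6. The stage is labelled 0 to 8 h, whereas the collection protocol speaks of 8 to 16 h, and which of these holds is not known. Whole embryos mix many cells, inside and outside the hairy stripes where stripes are present, and the list cannot tell in which of them a peak arose. The list has 1 start, 1 end and 1 score per peak and no value per library. No value below therefore has a replicate error, the read depth is unknown, and the score, whose scale is not named, is compared only within the list.

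Hairy is a basic helix-loop-helix repressor that binds DNA and recruits the corepressor Groucho through its carboxy-terminal WRPW motif. The gene is a primary pair-rule gene: separate upstream enhancers, read by maternal and gap factors such as Bicoid, Hunchback, Krüppel, Knirps and Giant, each drive one or a few of its stripes in the early embryo. Hairy protein in turn sets the stripe borders of other pair-rule genes such as fushi tarazu, and later it limits where sensory bristles form. A peak of the protein over its own gene bears on the question of whether chromatin there is bound by the gene's own product.

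In the gene table used here, which is built on Release 6 and lists h under the symbol hry, the nearest protein-coding genes on one side of h are Arr2, Pex7 and CG13305. Arr2 encodes an arrestin of the photoreceptors and Pex7 a peroxisomal import receptor. On the other side the nearest are SrpRbeta, CG32022 and CG6511, where SrpRbeta encodes a subunit of the signal recognition particle receptor. Between Arr2 and SrpRbeta the table lists only h itself and 1 long noncoding RNA gene, lncRNA:CR44526. The table served for names and gene order alone.

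The strongest peak at the hairy locus lay at 8668245 to 8669016, scored 22.98 and was also the widest of the 6, at 772 bp. It ranked 175th by score among the 1519 peaks of 3L and 1370th in the whole list, and 11.5% of the other 3L peaks scored at least as high. By width it ranked 202nd on 3L. It was therefore a fairly strong peak for its arm but far from the strongest one, which lay at 3766865 to 3769276, scored 126.46 and was 2412 bp wide.

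Close beside it lay a pair of weaker peaks. The peak at 8669697 to 8670073 scored 11.79 and was 377 bp wide, and that at 8671090 to 8671467 scored 9.77 and was 378 bp wide. They ranked 891st and 1193rd by score on 3L, and 78.8% of the other 3L peaks scored at least as high as the weaker one. The 3 peaks were parted by gaps of 680 and 1016 bp and filled 47.4% of the 3.22 kb from 8668245 to 8671467. Joining all peaks of the list within 500 bp of each other left these 3, and all 6 of the locus, as separate peaks. Of the 1517 runs of 3 consecutive peaks on 3L, 109 (7.19%) spanned no more than this, and the median run spanned 18.0 kb. The grouping was picked out after its values were seen.

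On the side of lower coordinates, the next peak lay 6.09 kb away from this group at 8661585 to 8662150. It had the second highest score of the locus, 18.61, and the second largest width, 566 bp, and ranked 311th by score on 3L. On the side of higher coordinates, the remaining pair of peaks followed after a gap of 18.2 kb. The first of them, at 8689715 to 8690078, scored 14.76 over 364 bp, and the second, at 8693542 to 8693924, scored 13.71 over 383 bp. They ranked 545th and 641st by score on 3L and lay 3.46 kb apart. Along the coordinates, the 2 highest scores of the locus thus came first, its 2 lowest scores followed directly on the strongest peak, and the pair of middling scores came last.

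**Figure D1:**
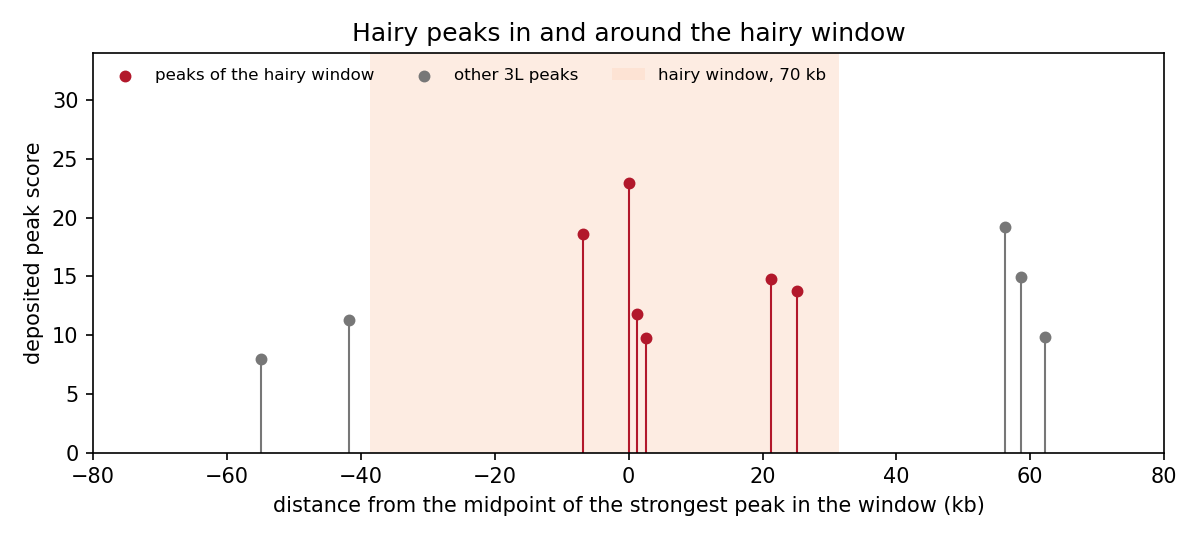
Deposited score of each Hairy peak (vertical axis, no unit named) against its distance in kb from the midpoint of the strongest peak of the locus, with the 70 kb window shaded. The 6 red peaks of the window score from 9.77 to 22.98 and the 5 grey peaks shown are its neighbours outside the window, the nearest of which score 11.25 and 19.20.

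The 6 peaks occupied less than the whole window. From the first to the last they spanned 32.3 kb, 46.2% of it, and the first began 31.6 kb inside the lower edge while the last ended 6.08 kb before the upper edge. Beyond the edges, the nearest peaks lay at 8626599 to 8627149, scoring 11.25 and with the midpoint 3.13 kb outside, and at 8724653 to 8725083, scoring 19.20 and with the midpoint 24.9 kb outside. The 6 peaks, rather than the window, were thus bounded by stretches without peaks, of 34.4 kb on the lower side and 30.7 kb on the upper side. Of these stretches, 31.6 kb and 6.08 kb lay inside the window. Among the 1518 gaps between neighbouring peaks of 3L these ranked 171st and 197th in length, and 11.3% and 13.0% of all gaps were at least as long. The median gap on the arm was 5.53 kb and the longest 358.8 kb. Dividing 3L at every gap at least as long as the upper one, a limit taken from the locus itself and under which its 6 peaks necessarily form 1 run, gave 198 runs of peaks. Of these, 72 held more than 6 peaks and the fullest held 97. A stretch without a peak is one where nothing passed the submitters' threshold, whose value is unknown.

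**Figure D2:**
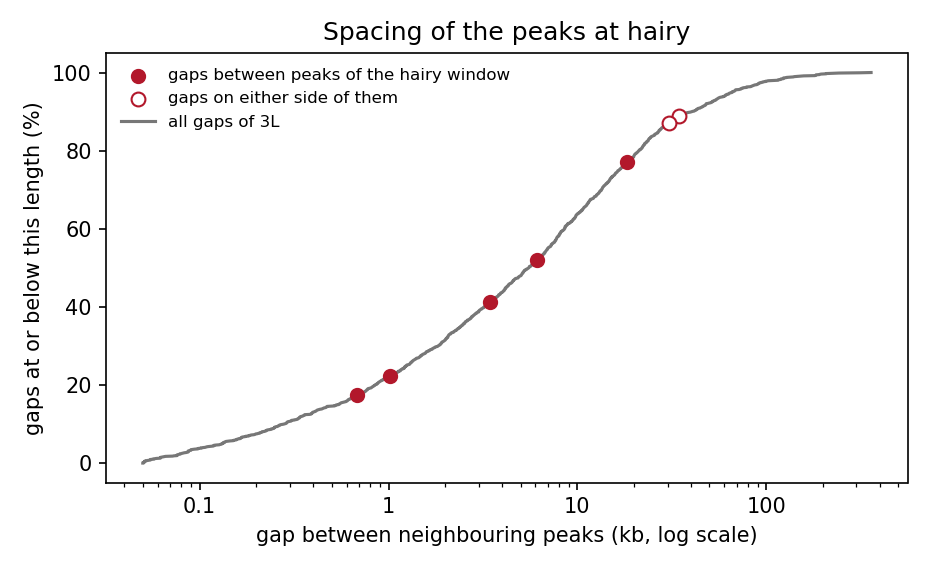
Length of the gaps between neighbouring peaks of 3L (kb, log scale) against the share of gaps at or below that length in percent. Filled red points are the 5 gaps between the peaks of the hairy window, from 0.68 to 18.2 kb, and open red points are the gaps of 34.4 and 30.7 kb on either side, which lie in the upper part of the grey curve of all 1518 gaps.

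Neighbouring peaks were about as frequent at hairy as along the arm. Another peak within 2 kb between midpoints was found for 3 of the 6, against 46.1% of all 3L peaks. Within 5 kb it was found for 5 of the 6, against 69.0%, and within 10 kb for all 6, against 84.1%. Around the strongest peak, 2 other peaks lay within 5 kb and 3 within 10 kb, where the medians over the other 3L peaks were 1 and 2. Of those other 3L peaks, 39.8% and 40.1% had at least as many. Within 20 kb the strongest peak still had 3 others, below the median of 4. Within 50 kb it had 6 others, below the median of 8, and 72.8% of the other 3L peaks had at least that many.

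Counted per window, the hairy locus held more peaks than the average window of the arm, by a margin within counting error. Its 6 peaks corresponded to 85.7 per Mb, with an exact 95% Poisson interval of 31.5 to 186.6. The interval covers counting error only, not the spread of counts between windows. The other 349 complete windows of 70 kb, laid edge to edge along 3L so that the hairy window was one of them, held a mean of 4.33 peaks, or 61.8 per Mb, a value inside that interval. The mean takes in the windows from 23330001 to 24520000, which held 0 to 2 peaks each. The hairy window had 1.39 times that mean, with an interval of 0.51 to 3.02. Its count equalled the upper quartile of the other windows. Of these, 106 (30.4%) had at least 6 peaks, 21 had exactly 6, 52 had none and the fullest had 18. The flanking windows of the same size held 2 peaks on the lower side and 3 on the upper side.

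Peaks covered 2840 bp of the hairy window, or 4.06%, against a median of 2.31% and an upper quartile of 4.53% over the other windows. Coverage was at least as high in 104 of the 349 (29.8%). The highest score of the window was exceeded in 122 of them (35.0%), where windows without a peak counted as lower. That was 41.1% of the windows with a peak. The middle score of its 6 peaks, 14.2, was exceeded in 91 (30.6%) of the 297 windows that held a peak. The median width of its peaks, 380.5 bp, was exceeded in 149 (50.2%) of those 297. The locus thus lay above the middle of the arm's windows in peak number, coverage and score, and at the middle in width.

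**Figure D3:**
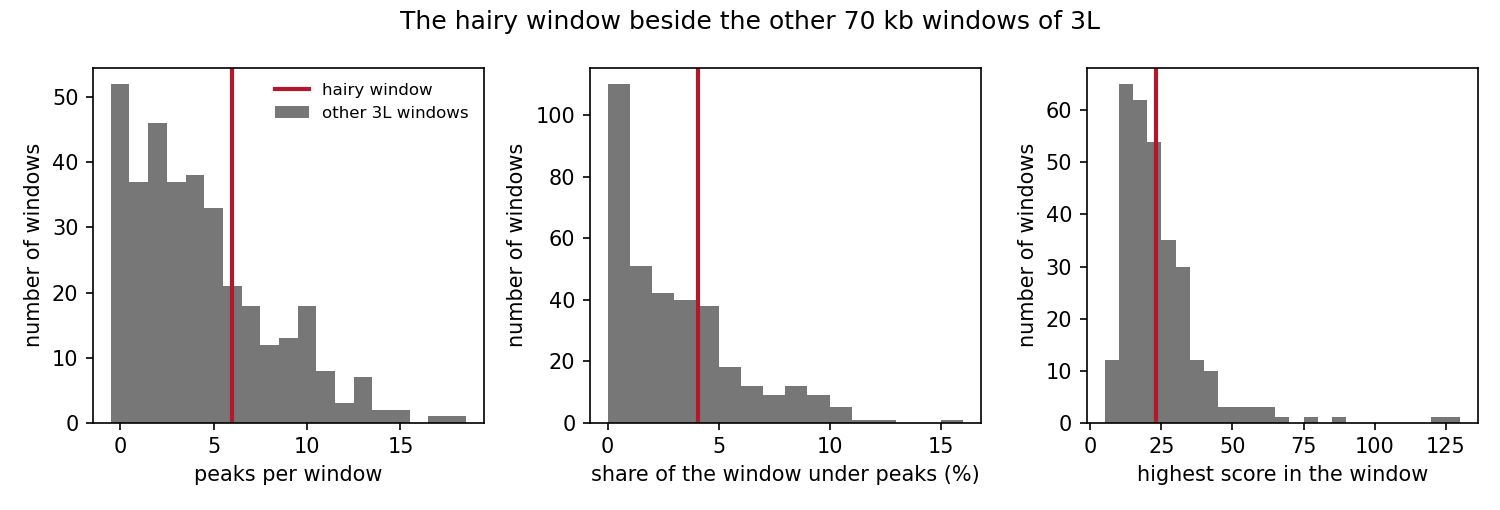
Numbers of 70 kb windows of 3L (vertical axes) by peaks per window, by share of the window under peaks in percent and by highest score, with the hairy window as a red line and the other 349 windows as grey bars (the right panel shows the 297 with a peak). The red lines at 6 peaks, 4.06% and 22.98 stand to the right of the middle of each distribution and well short of its end.

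Against the 21 other windows with exactly 6 peaks, the hairy window was neither the most compact nor the strongest. Its highest score of 22.98 lay just under their lower quartile of 23.13, and 16 of the 21 had a higher one, up to 57.50. The middle score of 14.2 was close to their median of 14.0. Coverage of 4.06% was below their median of 4.49%, and 15 of the 21 were covered more. The 6 peaks of hairy spanned 32.3 kb, less than in 15 of the 21, where the median span was 38.8 kb.

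As a group, the 6 peaks resembled the others of 3L in width, and their median score was somewhat higher. Their widths had a median of 380.5 bp, against 381 bp for the other 1513 peaks. One of the 6, the strongest, was at least as wide as the upper quartile of the whole list, 571 bp, against 26.9% of all 3L peaks. The peak at 8661585, 566 bp wide, missed that quartile narrowly. Their scores had a median of 14.2, against 12.8 for the other peaks of the arm, of which 38.6% scored at least 14.2. The peaks of the locus scoring 11.79 and 9.77 lay below 12.8. Among the 4479 highest-scoring peaks of the list the direction turned: the 4 peaks of the locus in it had a median of 16.7, and 57.8% of the other 3L peaks in it scored at least that. At or above the median score of the list were 4 of the 6, against 46.9% of the 3L peaks, and at or above its upper quartile of 18.47 were 2 of the 6, against 21.1%. These are the peaks at 8668245 and at 8661585, of which the peak at 8661585 passed the score quartile narrowly with 18.61. Over only 6 peaks, these shares lie near the background of the arm and are no result about the locus.

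Within the locus, the 2 highest scores went with the 2 largest widths, while the other 4 peaks had nearly equal widths, from 364 to 383 bp, at scores from 9.77 to 14.76. Across the 6 peaks, Spearman's rho between score and width was 0.60, and across the other 1513 peaks of 3L it was 0.65. Pearson's r on log2 values had the opposite order, with 0.87 across the 6 and 0.65 across the others. Both are correlations across peaks of 1 list, which share their libraries, and describe these peaks alone.

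**Figure D4:**
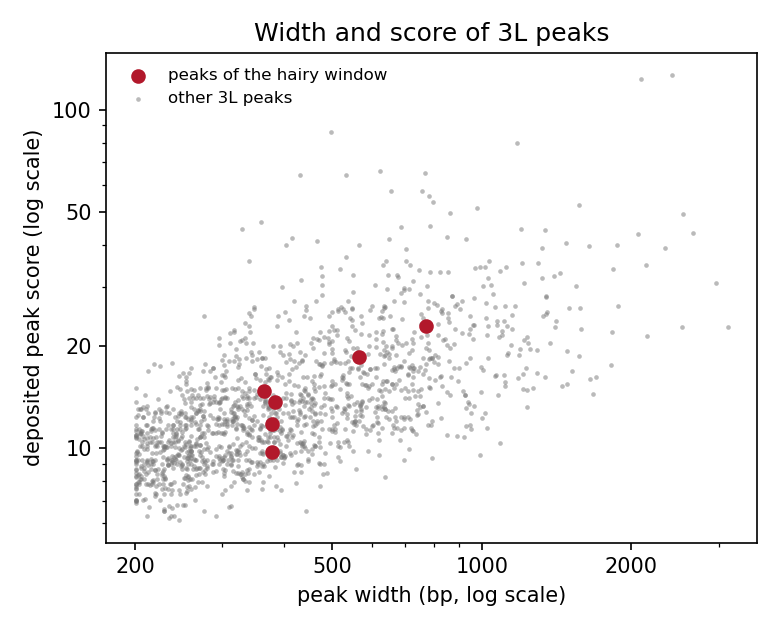
Width in bp and deposited score of the peaks of 3L, both on log scales, with the 6 peaks of the hairy window in red and the other 1513 in grey. The red points lie inside the grey cloud, and those at 772 and 566 bp are the highest of the 6.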

How the data were processed

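Hairy ChIP DNA and input DNA were sequenced in 2 libraries each, grouped by the sample titles. Fixation was 15 min in 1.8% formaldehyde, per the labels' protocols. The deposited file is 1 peak list for the series, in FlyBase release 5 coordinates per the file headers, with MACS as the source of each line. MACS2, BWA and CASAVA (1.7.0.2, also 1.7.0.3) are named with the build BDGP5, per the submitters' processing notes. Not given in the sources used here are the pooling of replicates, the control, the threshold and the handling of duplicate reads, which decide which peaks are listed. The score of each peak was used as the authors deposited it. Starts and ends are other values of the deposited list.

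Peaks were placed in windows by midpoint. Windows of 70 kb ran edge to edge from base 20001 of 3L, complete windows only, up to the last peak. Shares of windows leave out the hairy window. Shares set beside a median of the locus are of the 1513 other peaks of 3L, those set beside a single peak are of the 1518 other than that peak, and those set beside a count of members are of all 1519. No test was made, because the list has no value per library and the locus is 1 region. All 6 peaks, the nearest peak beyond each edge and the 3 nearest coding genes on each side are named by rule. The window and the measures were chosen with earlier results of these data known. No sequence of Release 5 was used. Window counting was checked on simulated data. Calculations ran in Python 3.11.15 with pandas 2.3.3, numpy 2.4.6 and scipy 1.17.1, and plots in matplotlib 3.10.9.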

Additional observations from a re-analysis of the deposited data

How the results depend on the processing

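No paired analysis was possible because the peaks are not listed by library, nor was any replicate left out. For the hairy window and its place on 3L, 10 values were recomputed under up to 10 alternatives, of which window starts every 1 kb were added after seeing the data. Of the 93 values obtained, 26 could not change, since another grid or other windows leave the peaks of the locus as they are. Of the other 67, 14 moved beyond the counting interval of a share, and the bounds for values of the locus itself were wide, 1.5 times for counts and coverage and the whole range of the 6 peaks for medians. Some of the 67 were also bound to stay. Restricting the list to its highest scores, for example, could change neither the highest score of the locus nor the share of windows reaching it. The window held 4 peaks when the list was restricted to its 4479 highest scores, 5 when the window was narrowed by 10 kb at each end and 7 when it was widened by as much.

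The share of other windows with at least as many peaks moved to 35.7% when windows without a peak were left out, to 20.9% with the stricter list and to 24.1% with peaks within 500 bp joined, against 30.4%. For coverage the share moved to 35.0% among windows with a peak, 24.4% with the stricter list and 24.2% with the narrowed window, against 29.8%. For the highest score it moved to 41.1% among windows with a peak, 27.3% with the narrowed window and 43.7% with the widened one, against 35.0%. The share of 3L peaks at least as wide as the median of the locus moved to 61.4% with the stricter list and 56.4% after joining, against 50.0%. The share scoring at least its median moved to 57.8%, 42.1% and, for the widened window, 42.7%, against 38.6%. With the stricter list, which left 4 of the 6 peaks, the median score of the locus was thus below that of the arm, a turn in direction. The planned motif and antigen searches were not run, since no sequence was used. Read depth, which limits the detection of weak peaks, is unknown.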

Other observations

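The strongest peak of the hairy locus was the highest point of a wide stretch of 3L, a measure chosen after the values were seen. The nearest peaks with a higher score lay 225.0 kb away on the lower side, at 8443087 to 8444193 with a score of 23.84, and 365.6 kb away on the upper side, at 9034023 to 9034534 with a score of 25.49. Between them, over 590.6 kb, the list held 40 peaks, or 67.7 per Mb, where the other 70 kb windows of 3L averaged 61.8. The score of 22.98 at hairy was followed by 22.88 at 8458159 to 8460693, 209.2 kb away, and by 21.38 at 8990196 to 8990675. Over the other 1518 peaks of 3L the median distance to a higher score was 7.10 kb, and 3.56% were at least as far from one as the hairy peak. Among the 104 other 3L peaks that scored within 10% of it, the median distance was 29.9 kb and 3 were at least as far. The margin over the next peak, 22.98 against 22.88, is small, and the list gives no error for a score. No test was made, since the peak is the highest of the 6 and was singled out for that. By this choice no higher score could lie inside the window, so a distance beyond both medians was fixed in advance. The comparison peaks were not chosen in this way.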
